A study of Mus musculus with 9 samples.

Results

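ETn (early transposon) and MusD elements are a group of mouse endogenous retroviruses, and their transcripts were followed here in cultured muscle stem cells that had lost Uhrf1. The members were the rows of the deposited repeat count table whose name starts with ETn, MMETn or RLTRETN. There were 5 of them among 1146 repeat subfamilies: the internal sequences MMETn-int, ETnERV-int, ETnERV2-int and ETnERV3-int, and the long terminal repeat (LTR) RLTRETN_Mm. The libraries came from satellite cells (skeletal muscle stem cells) from hindlimb muscle of 9-week-old mice. Control mice had received oil. Mutant mice, Uhrf1-deficient in satellite cells, had received tamoxifen on 5 days to induce a Cre recombinase. Cells of both groups were seeded at 5000 cells/cm2 and grown for 3 days, so both describe activated cells in culture. Each group had 3 libraries in the repeat table, and the 3 Cre Control libraries, also from tamoxifen-treated mice, were not analysed here. The sources used here do not name the Cre driver, the alleles of the Control mice or the number of animals behind a library. Oil and tamoxifen follow the groups, so their effect and that of Uhrf1 loss cannot be told apart.

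ETn elements carry no intact retroviral genes and depend on other elements for the proteins that copy them. MusD elements, their autonomous relatives, encode the capsid, protease and polymerase proteins and lack an envelope gene. Copies of both still insert into the mouse genome and have caused inherited mutations. The LTRs at their ends hold the promoter and the polyadenylation signal, while the internal sequence lies between them, and an LTR can also stand alone in the genome. In differentiated cells DNA methylation is one of the layers that keep such elements silent, and Uhrf1 brings the maintenance methyltransferase Dnmt1 to newly replicated DNA. In early embryonic cells KRAB zinc finger proteins, Trim28 and the histone methyltransferase Setdb1 add a second layer.

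The 6 libraries held between 1794698 and 2245124 repeat counts. One of them stood apart in these same repeat counts: in the library labelled Control 3, rows with names starting with IAP (intracisternal A particles, another retroviral family) took 15.0% of repeat counts. The same rows took 0.800% and 0.991% in Control 1 and Control 2, and from 10.6% to 18.4% in the Mutant libraries. The fold changes and ratio tests below are therefore given with all 6 libraries and again without the library labelled Control 3. That library was set apart on the counts that are then tested. The p-values without it do not allow for this choice and may be too small. The targeted gene could not check the labels, since no value of Uhrf1 in a single library was at hand. Levels are given as CPM, repeat counts scaled to a common library total with TMM factors, and so are relative to other repeats, not to total RNA.

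MMETn-int, the internal sequence with most counts, differed most between Mutant and the first 2 Control libraries. It stood at 804 CPM in Control 1, 849 CPM in Control 2 and 1958 CPM in the library labelled Control 3. In the Mutant libraries it stood at 1203, 1447 and 1528.5 CPM. Every Mutant library lay above Control 1 and Control 2 and below the library labelled Control 3, so the groups overlapped when all 6 were used. Control averaged 1204 ± 654 CPM (SD, n = 3), and Mutant averaged 1393 ± 169 CPM (SD, n = 3). With 6 libraries the log2 fold change was 0.21 (SE 0.32) and was within the spread between libraries (edgeR's quasi-likelihood test, adjusted p = 0.814). Without the library labelled Control 3 it rose by 0.75 on the log2 scale (SE 0.09; edgeR adjusted p = 0.000444), a ratio of 1.68 over the mean of Control 1 and Control 2. RNA from bulk cells does not separate more transcript per cell from more cells that carry it.

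In raw counts, MMETn-int held 1653, 2189 and 3691 counts in Control 1 to Control 3. It held 2295, 2604 and 3005 counts in Mutant 1 to Mutant 3. Control 1 therefore had 0.0921% of its repeat counts in this row (95% Wilson interval 0.0878 to 0.0967). For Control 2 this share was 0.0975% (0.0935 to 0.102). The shares were 0.120%, 0.135% and 0.134% in the Mutant libraries. In the library labelled Control 3 the share was 0.183% (0.177 to 0.188), and its interval lay above that of the highest Mutant library (0.130 to 0.140). These intervals describe counting error alone, not the spread between libraries. They may be too narrow even for that, since amplified reads carry no molecular identifier and need not be independent. The Mutant intervals did not overlap those of Control 1 and Control 2. In CPM, 21.3% of all subfamilies had every Mutant library above both of these Control libraries.

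ETnERV-int had the same order of groups with a smaller difference. Control 1 and Control 2 held 197 and 192 CPM, the library labelled Control 3 held 296 CPM, and Mutant 1 to Mutant 3 held 235, 247 and 234 CPM. The Mutant values again fell between the first 2 Control libraries and the third. Over 6 libraries edgeR estimated a log2 fold change of 0.07 (SE 0.16, adjusted p = 0.869). Without the library labelled Control 3 it rose by 0.30 on the log2 scale (SE 0.07; edgeR adjusted p = 0.0270), and DESeq2 on the same 5 libraries gave 0.29 (SE 0.11) with an adjusted p of 0.0863. This call also rests on the scaling. With library totals alone and the same 5 libraries, ETnERV-int was at 0.0025 (adjusted p = 0.988), while the median of all subfamilies moved to −0.29, and MMETn-int was at 0.45 (adjusted p = 0.000757).

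RLTRETN_Mm, the LTR, had 182 CPM in Control 1, 156 CPM in Control 2 and 236 CPM in the library labelled Control 3. The Mutant libraries held 186, 203 and 218 CPM of it, the lowest of them close to Control 1. Its edgeR estimate was 0.09 on the log2 scale (SE 0.14, adjusted p = 0.835) with 6 libraries and 0.26 (SE 0.10, adjusted p = 0.149) without the library labelled Control 3. It passed the threshold in neither fit. Its sign also turned with library totals alone, to −0.10 with 6 libraries and −0.04 with 5, against medians of all subfamilies of −0.20 and −0.29.

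The other two internal sequences, ETnERV2-int and ETnERV3-int, had few counts and did not pass the threshold in either fit. ETnERV2-int ranged from 59.4 to 77.4 CPM in Control and from 72.2 to 75.8 CPM in Mutant, on 130 to 159 counts per library. Its highest and its lowest value were both in Control, in Control 1 and Control 2. On the log2 scale edgeR gave 0.08 (SE 0.12, adjusted p = 0.805) with 6 libraries and 0.12 (SE 0.14, adjusted p = 0.675) with 5. ETnERV3-int was at 42.3, 46.9 and 37.7 CPM in Control and at 38.3, 36.7 and 41.2 CPM in Mutant, on 66 to 121 counts per library. It had negative estimates, −0.14 (SE 0.13; edgeR adjusted p = 0.677) with 6 libraries and −0.21 (SE 0.15; edgeR adjusted p = 0.484) with 5. With library totals alone ETnERV3-int was at −0.344 (edgeR adjusted p = 0.298) with 6 libraries and at −0.506 (edgeR adjusted p = 0.0204) with 5, which is a call, against the shifted medians given for the LTR. In this row the library labelled Control 3 lay with the Mutant libraries on the low side.

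**Figure D1:**
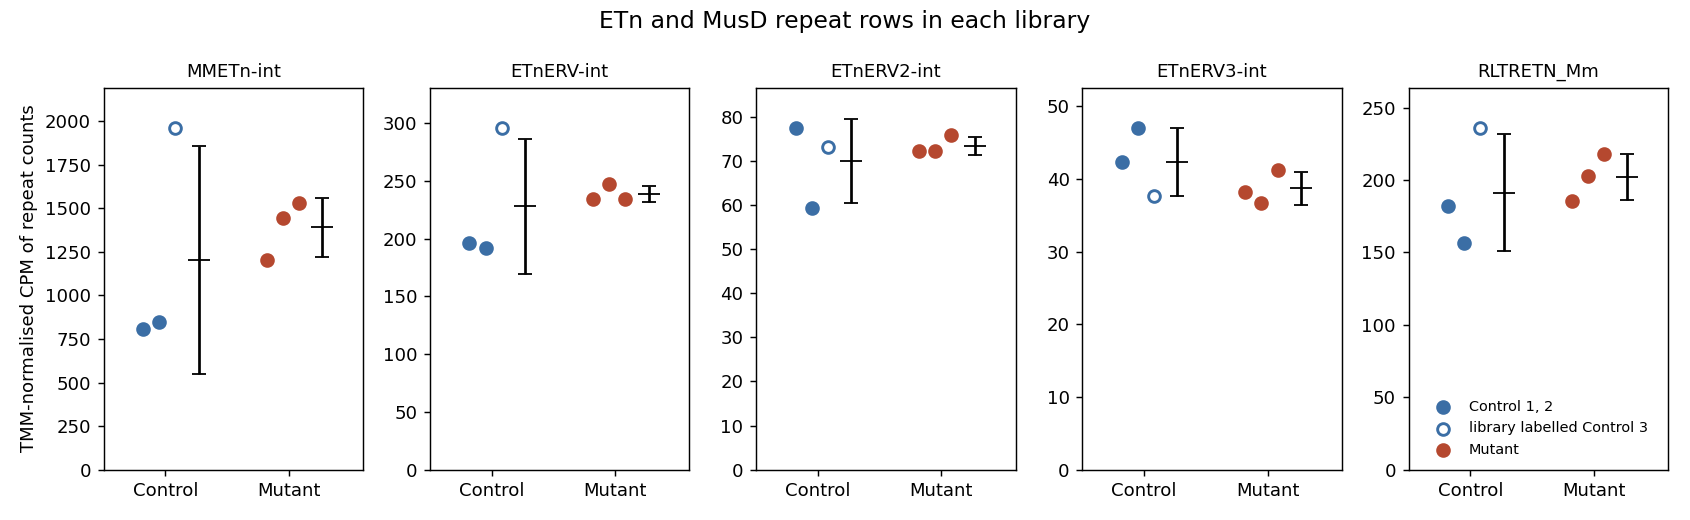
TMM-normalised CPM (vertical axes, each from 0) of the 5 rows in 3 Control and 3 Mutant libraries, with black bars for the mean ± SD of 3 libraries and an open circle for the library labelled Control 3. In the MMETn-int panel the Mutant libraries, from 1203 to 1528.5 CPM, lie between Control 1 and Control 2 (804 and 849 CPM) and the open circle (1958 CPM).

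Counted over the family, edgeR called 0 of the 5 rows with 6 libraries, where it called 0 of 984 subfamilies (0%). At an unadjusted p below 0.05 there were 111 subfamilies, none of them a member, and DESeq2 called 0 of the 5 and 17 of the 714 subfamilies with an adjusted p (2.38%, with 1.96% higher and 0.42% lower). Without the library labelled Control 3, edgeR called 2 of the 5 rows higher in Mutant and 0 lower, against 6.94% of 994 subfamilies called higher and 0.402% called lower. DESeq2 on those 5 libraries called 1 of the 5 rows, MMETn-int, against 5.73% of 1065 subfamilies (5.45% higher and 0.282% lower). The median log2 fold change of the 5 rows was 0.08 with 6 libraries and 0.26 with 5, beside medians over all subfamilies tested of −0.0027 and 0.0044. Among the 69 subfamilies called higher, MMETn-int ranked 29th by fold change, and 15 of the 69 were IAP rows. All 5 rows passed the filter on low counts. Without regard to a test, 3 of the 5 rows had every Mutant library above Control 1 and Control 2, as did 21.3% of all subfamilies. ETnERV3-int had every Mutant library below both, as did 18.2%. With 6 libraries, 0 of the 5 rows separated the groups, while 8.54% of subfamilies lay above and 9.25% below.

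The library that stands apart has a counterpart in the authors' own comparison. Their deposited repeat table gives mean normalised counts for 1093 subfamilies. A DESeq2 fit without the library labelled Control 3 returned those means within a relative gap of 4.7e-10 for every subfamily. Its log2 fold changes differed from the deposited ones by at most 0.00134. A fit of all 6 libraries missed the means by a median of 1.86%, and leaving out any other library missed them by a median of 2.13% to 6.2%. The deposited repeat comparison thus holds the values of 2 Control and 3 Mutant libraries. In the authors' deposited table MMETn-int had a log2 fold change of 0.75 (SE 0.10, adjusted p = 6.06e-12). The authors' deposited table has ETnERV-int at 0.29 (SE 0.11, adjusted p = 0.0825) and RLTRETN_Mm at 0.26 (SE 0.13, adjusted p = 0.337). ETnERV2-int was at 0.11 (SE 0.18) and ETnERV3-int at −0.21 (SE 0.22) there. MMETn-int was the only member past 0.05 in the authors' deposited table, where 5.95% of 1008 subfamilies with an adjusted p were called higher.

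**Figure D2:**
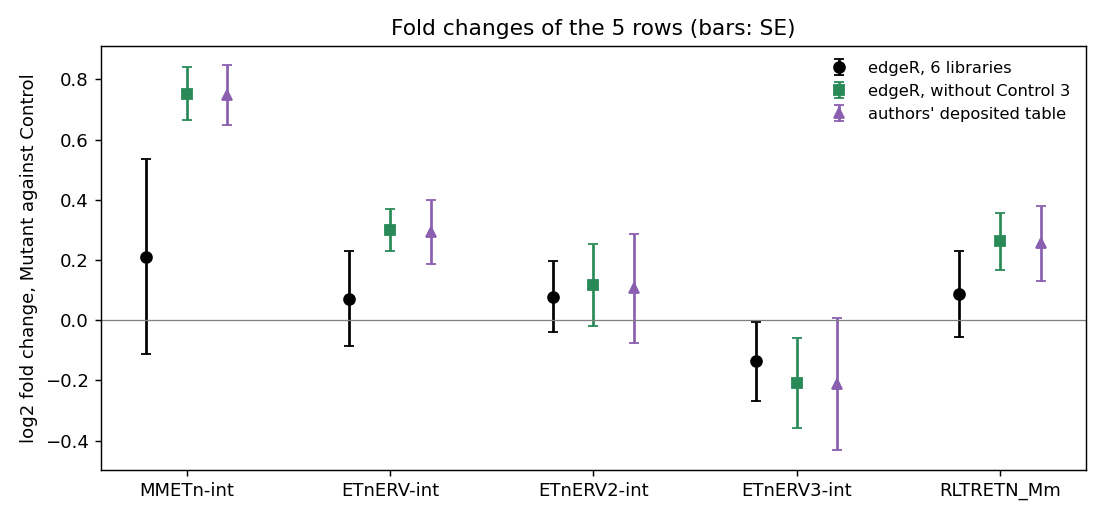
Log2 fold change of Mutant against Control (vertical axis, bars are SE) for the 5 rows in edgeR with 6 libraries, in edgeR without the library labelled Control 3, and in the authors' deposited table. For MMETn-int the 6-library estimate is 0.21, and the other two are both 0.75. The SE of the edgeR fits was derived from the F statistic, and that of the authors' deposited table is its own.

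Ratios of counts within a library do not depend on scaling, and they differed in how far the libraries stood apart. MMETn-int per count of RLTRETN_Mm was 4.42 and 5.43 in Control 1 and Control 2, and 6.48, 7.13 and 7.02 in the Mutant libraries. In the library labelled Control 3 this ratio was 8.31, the highest of the 6. MMETn-int per count of ETnERV3-int was 19.0 and 18.1 in Control 1 and Control 2, 52.0 in the library labelled Control 3, and 31.4, 39.5 and 37.1 in the Mutant libraries. MMETn-int per count of ETnERV-int was 4.09 and 4.42 in Control 1 and Control 2, 6.63 in the library labelled Control 3, and 5.12, 5.85 and 6.52 in the Mutant libraries. Each of these 3 ratios separated Control 1 and Control 2 from the other 4 libraries, but all share MMETn-int and so are not independent. MMETn-int per count of ETnERV2-int and ETnERV3-int per count of RLTRETN_Mm separated the same libraries. In contrast, ETnERV-int per count of RLTRETN_Mm stayed between 1.08 and 1.27 in all 6 libraries, and the groups overlapped. This split of the libraries was read from the data, and the share of other row pairs that show it was not counted. Among single subfamilies, 21.3% had every Mutant library above Control 1 and Control 2 in CPM, and 18.2% had every one below.

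In a two-sided exact permutation test over 5 libraries, MMETn-int against RLTRETN_Mm differed by 0.49 on the log2 scale with p = 0.10, which is the smallest p that 2 against 3 libraries can give. The exact permutation p over 6 libraries was 0.40 for that ratio, where the smallest possible is also 0.10. For MMETn-int against ETnERV-int the exact permutation p was 0.20 over 5 libraries and 0.40 over 6. Of 10 ratios compared, none had a Benjamini-Hochberg adjusted p below 0.143 over 5 libraries or below 0.50 over 6, so the exact permutation tests could not place any of them past 0.05. The 4 internal rows summed per count of RLTRETN_Mm gave 6.16, 7.34 and 10.04 in Control and 8.34, 8.89 and 8.64 in Mutant. Their difference was 0.17 (log2, exact permutation p = 0.50) with 6 libraries and 0.36 (exact permutation p = 0.10) with 5.

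Within the family's own counts, MMETn-int made up 61.7% and 65.1% of the counts of the 5 rows in Control 1 and Control 2, 69.4%, 72.1% and 72.9% in the Mutant libraries, and 75.3% in the library labelled Control 3. RLTRETN_Mm made up 13.97% and 11.99% in Control 1 and Control 2, 9.06% in the library labelled Control 3 and 10.1% to 10.7% in Mutant. ETnERV3-int made up 3.25% and 3.60% in Control 1 and Control 2 and between 1.83% and 2.21% in Mutant, with 1.45% in the library labelled Control 3. The rows differ in length, which the files do not give, so these shares do not rank the elements by transcript number. ETn and MusD copies are alike in sequence, and the sources used here do not say how reads mapping to more than 1 copy were counted, so a read may have been split among these rows or assigned to another of them.

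The 5 rows together took 0.149% and 0.150% of repeat counts in Control 1 and Control 2, 0.242% in the library labelled Control 3, and 0.173%, 0.187% and 0.184% in the Mutant libraries. These totals include the IAP rows, at 0.800% and 0.991% in Control 1 and Control 2 and 10.6% to 18.4% in Mutant. A larger IAP part lowers the share of every other row. For comparison, IAPEz-int, an internal sequence of IAP elements, was at 5.44 and 6.92 counts per count of MMETn-int in Control 1 and Control 2. That ratio was 72.0 in the library labelled Control 3 and 77.5, 82.6 and 121 in Mutant. MMVL30-int, of the VL30 family, was at 20.0 and 22.0 counts per count of MMETn-int in Control 1 and Control 2 and at 17.6 in the library labelled Control 3. In the Mutant libraries it was at 33.9, 38.9 and 34.1, above all 3 Control libraries. Both ratios were higher in every Mutant library than in every Control library (exact permutation p = 0.10 for each with 6 libraries, the smallest possible, adjusted p = 0.50). The mean log2 ratio of IAPEz-int to MMETn-int was higher in Mutant by 2.72 with 6 libraries and by 3.90 without the library labelled Control 3. For MMVL30-int to MMETn-int it was higher by 0.85 with 6 libraries and 0.76 without that library (exact permutation p = 0.10 for both ratios over 5 libraries, adjusted p = 0.143). These means of log2 ratios are not differences of edgeR estimates. For IAPEz-int edgeR gave 1.40 (SE 1.19, adjusted p = 0.638) with 6 libraries and 4.69 (SE 0.28) with 5.

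**Figure D3:**
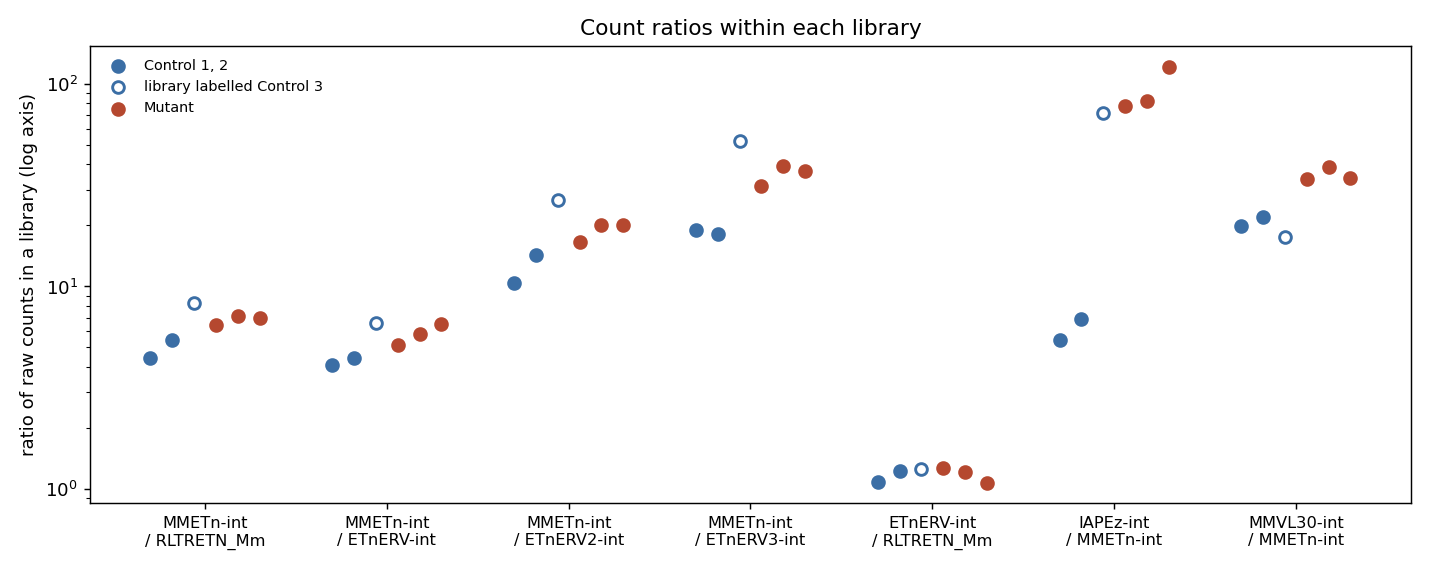
Ratio of raw counts of 2 repeat rows within each library (vertical log axis), with Control 1 and Control 2 as filled blue, the library labelled Control 3 as open blue and Mutant as red circles. ETnERV-int per RLTRETN_Mm stays between 1.08 and 1.27, while MMVL30-int per MMETn-int is 17.6 in the open circle, next to the 20.0 and 22.0 of the other Control libraries.

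By a chi-square measure summed over repeat rows, the library labelled Control 3 lay nearer to the Mutant libraries than to the other Control libraries. Its chi-square over degrees of freedom was 20.6 to 23.8 against the Mutant libraries, 288 against Control 1 and 331 against Control 2. Between Mutant libraries this measure was 15.7 to 61.7. Rows with large counts weigh most in it. IAPEz-int alone held 8987 counts in Control 1, 15151 in Control 2 and 265619 in the library labelled Control 3. The measure was not computed without the IAP rows. In the single rows compared here, the library labelled Control 3 did not hold one fixed place between the groups. For MMETn-int it was 2.37 times the mean of Control 1 and Control 2 and 1.41 times the Mutant mean. For ETnERV-int these ratios were 1.52 and 1.24, and for RLTRETN_Mm 1.39 and 1.17. For IAPEz-int it was at 1.06 times the Mutant mean and for MMVL30-int at 0.692 times. On the log2 scale the library labelled Control 3 exceeded Control 1 and Control 2 by 1.24 for MMETn-int, by 0.60 for ETnERV-int and by 0.48 for RLTRETN_Mm. Of the 615 subfamilies with a mean of at least 50 CPM, 31 exceeded 0.5 in this measure and 2 were below −0.5, with a median of 0.0090. Control 2 differed from Control 1 by 0.08 for MMETn-int, by −0.03 for ETnERV-int and by −0.22 for RLTRETN_Mm. For ETnERV2-int that difference was −0.38, larger than the 0.11 by which the library labelled Control 3 exceeded both, and for ETnERV3-int it was 0.15, beside −0.24. What sets this library apart was not tested.

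Among subfamilies of other names, those with the profile most like that of the summed internal rows were a mixed group of retroviral repeats. Likeness was measured over the 6 libraries as the root mean square difference of mean-centred log2 CPM, among 611 subfamilies with a mean of at least 50 CPM, whose median difference was 0.395. The closest was ERVB4_1C-LTR_Mm, an LTR, with 0.071. Its levels were 82.7 CPM in Control 1, 89.6 CPM in Control 2 and 184 CPM in the library labelled Control 3, against 128, 134 and 133 CPM in Mutant. The next were IAP1-MM_I-int (0.122), IAP-d-int (0.124), RLTR4_Mm (0.127) and RLTR4_MM-int (0.128). RLTR4_MM-int had 2498 CPM in Control 1, 2785 CPM in Control 2 and 4903 CPM in the library labelled Control 3, against 3454, 4519 and 5104 CPM in Mutant. Of these 5, only ERVB4_1C-LTR_Mm had the library labelled Control 3 above every Mutant library by a wide margin, as MMETn-int did, and RLTR4_Mm by a narrow one (2218 CPM against 2207 CPM). Their log2 fold changes lay between 0.17 and 0.42 with 6 libraries and between 0.59 and 0.77 without that library, which the choice by profile largely sets, so they are given with no test.

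**Figure D4:**
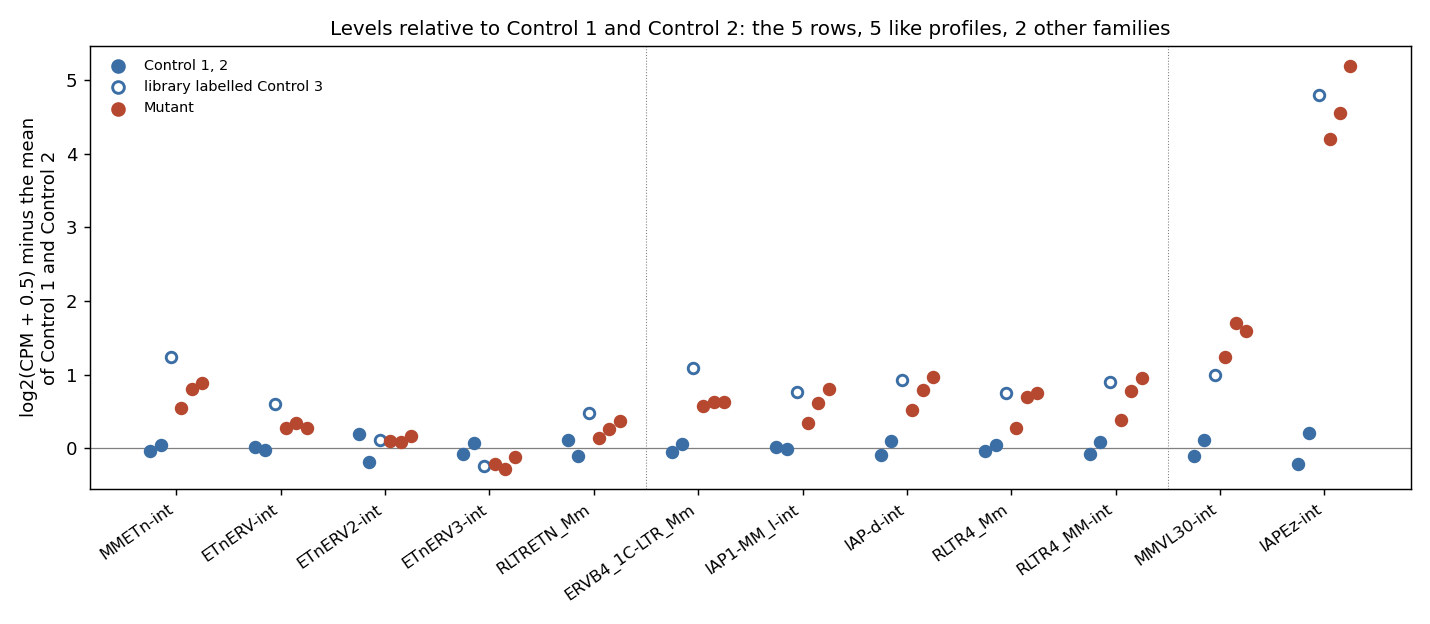
Log2(CPM + 0.5) minus the mean of Control 1 and Control 2 (vertical axis) in each library for the 5 ETn and MusD rows, the 5 subfamilies of most similar profile, and MMVL30-int and IAPEz-int, separated by dotted lines. The open circle of the library labelled Control 3 lies above the Mutant libraries for MMETn-int (1.24) and below them for MMVL30-int (0.99).

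Genes that silence such elements, and Tet1, Tet2 and Tet3, which act against DNA methylation, were read from the authors' deposited gene table. It compares Mutant with Control and has no value per library. Its Control means fit 3 libraries: multiplied by 3, 94.4% of 6947 means between 10 and 100 TPM came out whole at the fourth decimal (within 0.01 of that digit), against 32.3% multiplied by 2. This concerns the mean TPM columns alone, and how many Control libraries entered the gene table's tests is not shown by it. Of the 33 genes listed, 32 were found, and of these 18 fell and 0 rose by the authors' deposited table, where 8.11% of all genes fell and 9.02% rose. The 18 include Uhrf1, the targeted gene, whose fall follows from the design, and Tet3, which is not a silencing gene. The test estimate, on the log2 scale, is the statistic in the authors' deposited table times its standard error, and its median was −0.28 for the list and 0.01 for all genes. None of these genes was measured in the same table as the repeats, and whether they bear on ETn and MusD transcripts was not tested.

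In the authors' deposited table the mean of Uhrf1 was 118 TPM in Control and 20.4 TPM in Mutant, with a test estimate of −3.12 (SE 0.60, adjusted p = 4.01e-06). Its standard error was far wider than that of the 17 other genes that fell, which lay between 0.049 and 0.114 in the authors' deposited table. By the authors' deposited table Dnmt1 fell from 122 to 94.3 TPM (−0.37, SE 0.06, adjusted p = 3.2e-09), and the de novo methyltransferase Dnmt3a from 19.6 to 17.3 TPM (−0.28, SE 0.10, adjusted p = 0.0476). Hells (−0.43, SE 0.08), a chromatin remodeller needed for DNA methylation, and its partner Cdca7 (−0.55, SE 0.11) fell in the authors' deposited table. Tet3, which oxidises methylated cytosine and so acts in the opposite direction, fell too (−0.71, SE 0.08, in the authors' deposited table).

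In the layer of histone H3 lysine 9 methylation, Trim28, the corepressor that KRAB zinc finger proteins recruit, had means of 360 and 292 TPM and fell (−0.32, SE 0.05, adjusted p = 4.61e-08 by the authors' deposited table). By the authors' deposited table Setdb1, at 39.2 and 33.1 TPM, fell as well (−0.29, SE 0.08, adjusted p = 0.00129). The heterochromatin protein genes Cbx1 (−0.48, SE 0.07), Cbx5 (−0.35, SE 0.05) and Cbx3 (−0.33, SE 0.05) fell in the authors' deposited table, as did the methyltransferase Suv39h1 (−0.36, SE 0.07). The chromatin assembly subunits Chaf1b (−0.57, SE 0.11) and Chaf1a (−0.44, SE 0.08) fell in the authors' deposited table. So did Morc2a (−0.32, SE 0.06) and Pphln1 (−0.25, SE 0.07), which belong to or act with the HUSH silencing complex, Smchd1 (−0.29, SE 0.06) and Sumo2 (−0.18, SE 0.05). Genes of the list that did not pass included Atf7ip, a partner of Setdb1 (0.12, SE 0.07, adjusted p = 0.241), and Dnmt3b (2.54 and 1.42 TPM, adjusted p = 0.316), in the authors' deposited table.

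**Figure D5:**
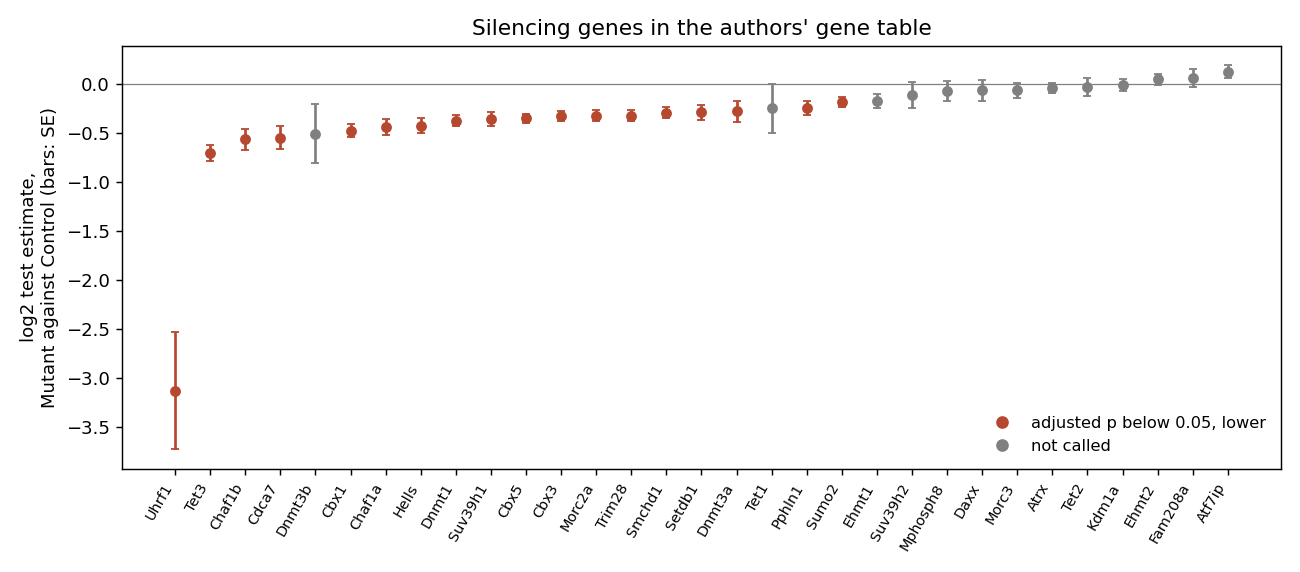
Test estimate of Mutant against Control (log2, vertical axis, bars are SE) for the listed silencing and Tet genes in the authors' deposited gene table, red where the adjusted p was below 0.05 and grey otherwise. Uhrf1 lies at −3.12 and the other genes that fell lie between −0.71 and −0.18. Dnmt3l, at 0.036 and 0.285 TPM with an SE of 2.84, is not drawn.

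The cells carried the markers of their label. The authors' deposited table lists Pax7 with 23.1 TPM for Control and 29.6 TPM for Mutant, Myf5 with 168 and 157 TPM, and Myod1 with 1018 and 914 TPM. Of 5 satellite cell and myoblast markers in the authors' deposited table, 2 rose (Pax7 and Des), 2 fell (Myod1 and Cdh15) and Myf5 did not pass. Of 10 macrophage and leukocyte markers, 7 were listed, without Adgre1, Itgam and Tyrobp. Of these 7, 2 rose (Cd68 and Laptm5), and by the authors' deposited table the summed level of the 7 was 34.2 TPM for Control and 115 TPM for Mutant. Most of that difference lay in Laptm5 (25.1 and 84.8 TPM) and in Fcer1g (3.22 and 19.3 TPM, adjusted p = 0.203), by the authors' deposited table. The pan-leukocyte marker Ptprc was at 0.381 and 0.303 TPM there, the only listed marker of this group with a negative test estimate (−0.39, SE 0.64). Csf1r (0.156 and 0.430 TPM), Lyz2 (0.197 and 0.608 TPM) and Cd14 (1.70 and 3.39 TPM) were higher in Mutant but did not pass. The median test estimate of the listed macrophage and leukocyte markers was 1.28. By the authors' deposited table, of 6 endothelial markers 1 rose and 2 fell (summed 11.1 and 7.88 TPM), of 6 fibroblast markers 0 passed (210 and 227 TPM), of 4 pericyte markers 1 rose (26.1 and 35.6 TPM) and of 4 Schwann cell markers 1 rose (3.37 and 5.57 TPM). The part of these cells in the repeat counts was not tested.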

How the data were processed

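The 6 Control and Mutant libraries were depleted of ribosomal RNA and prepared with a strand-specific kit, per the labels' protocols. Per the submitters' processing notes the tools named are STAR 2.7.6a, featureCounts 2.0.1, Trim Galore 0.6.6 and also DESeq2, with builds GRCm38 and mm10. The sources used here do not say how repeats were annotated, whether strand was used or how multi-mapping reads were treated. For the 6 libraries the authors deposited raw counts of each repeat subfamily. They deposited comparison tables with log2 fold changes, score values (standard errors and statistics), p-values, mean TPM of genes and mean signals (normalised counts) of repeats, per the file headers. In the count table and the gene table the header names stand 1 cell to the left of their columns.

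Group differences were fitted by edgeR 4.0.16 under R 4.3.3 (filterByExpr, TMM factors, quasi-likelihood, Benjamini-Hochberg over all subfamilies, threshold 0.05) and with DESeq2 1.42.0. The fit was tested on simulated data. The quasi-likelihood test reports no SE, so each edgeR SE is the absolute log2 fold change over the square root of its F statistic. DESeq2 reports its own SE. The labels do not tie libraries to separate animals, so a p-value reflects only how these libraries vary, possibly for technical reasons. No 2 libraries agreed within sampling noise (chi-square over degrees of freedom 3.19 or more). All 5 rows are named, with the 5 nearest profiles, the listed silencing and Tet genes past the threshold, and IAPEz-int and MMVL30-int. Members and lists were chosen with earlier results of these data known. Repeat sequences were not used here.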

Additional observations from a re-analysis of the deposited data

How the results depend on the processing

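The call on MMETn-int turned on 1 library. It was called in 10 of 11 fits without the library labelled Control 3 (log2 fold change 0.45 to 0.85) and in 0 of 12 fits with it (−0.0098 to 0.331, lowest adjusted p = 0.509). ETnERV-int was called in 6 of 11 and 0 of 12 fits, and in the former its estimates ran from 0.00252 to 0.316. ETnERV2-int was called in 0 of 11 (−0.182 to 0.309). RLTRETN_Mm was called in 1 of 11 (−0.0378 to 0.372), without Mutant 1 as well (0.325, adjusted p = 0.00278). ETnERV3-int was called in 1 of 11 (−0.506 to −0.124), with library totals alone (−0.506, adjusted p = 0.0204). Both were called in 0 of 12 fits with that library, as was ETnERV2-int. The exception for MMETn-int left out Control 1 as well (0.72, adjusted p = 0.0591), which leaves 1 Control library whose spread is assumed to be that of the Mutant libraries.

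Leaving out 1 library at a time, or the library labelled Control 3 and another setting or library, gave 0 to 3 members called and 0 to 441 subfamilies called, against 0 and 0. Without the library labelled Control 3 alone these were 2 and 73 (61 subfamilies with DESeq2, 71 with RLE factors and 77 with no filter on low counts), and with a second library left out 12 to 193 subfamilies. The 441 came from library totals alone, with 9.07% of calls higher against 94.5% with TMM. DESeq2 called 17 subfamilies and library totals alone 6, with all 6 libraries. The log2 difference in the summed internal to LTR ratio, 0.166, ranged from 0.00619 to 0.359, and the difference in the family's share of repeat counts from −0.0148 to 0.0318 percentage points, against 0.00086. Within this range, the share difference was 0.0155 with the IAP rows taken out of the repeat counts and 0.0164 without the 2 highest rows.

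With library totals alone, the sign turned for ETnERV-int (−0.106), ETnERV2-int (−0.124) and RLTRETN_Mm (−0.103) with 6 libraries, and for ETnERV2-int (−0.182) and RLTRETN_Mm (−0.0378) with 5. Without Control 1 it turned for MMETn-int (−0.00976) and ETnERV-int (−0.0214). Without Control 2 it turned for ETnERV-int (−0.0383), ETnERV2-int (−0.0345) and RLTRETN_Mm (−0.0432). Without both Control 2 and the library labelled Control 3, ETnERV2-int was at −0.0715. The cause of these turns was not tested.

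The labels link libraries of the same number by that number alone. Deviations of same-numbered libraries from their group means correlated at 0.446, 0.011 and 0.542 over 615 subfamilies. For Control 1 to Control 3, the largest correlation with a Mutant library of another number was 0.014, 0.438 and −0.014. What lies behind these correlations was not tested. With the replicate number as a block, 0 members and 0 subfamilies were called, and MMETn-int was at 0.331 (adjusted p = 0.509). The fits without the library labelled Control 3 that combine it with another choice, and the share without single libraries, were chosen after seeing the data. ETnERV2-int and ETnERV3-int rest on 66 to 159 counts per library, the fewest of the 5 rows.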
